A study of Mus musculus with 8 samples.

Results

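The genes described here handle iron and make heme in brown adipose tissue (BAT), the fat depot that burns fuel for heat. They are 9 genes of iron uptake (Tfrc, Trf), iron storage (Fth1, Ftl1), iron export (Slc40a1) and heme synthesis (Alas1, Alad, Cpox, Fech), taken by name from a table of 31053 Ensembl genes after mapping identifiers to symbols. All 9 were found, and all 9 were among the 9264 genes with enough counts to be tested. BAT was profiled by bulk RNA-seq in 4 wild-type (WT) and 4 db/db mice, to find out which genes differ in this tissue in obesity with type 2 diabetes. The mice were 8 weeks old, and the study's methods state that all were males on normal diet and that tissues were taken after a fast. db/db mice carry a mutation of the leptin receptor gene (Lepr) in every tissue, overeat, and become obese and diabetic. No library held a read of Lepr (0 counts in each of the 8), which leaves the labels unchecked on that transcript.

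The labels give the strain C57BL6/J for both genotypes. The methods name different suppliers for the WT and the db/db mice and call the latter B6.BKS(D)-Leprdb/J, while the list of materials names 1 supplier for both and gives the stock number of a db/db line on the C57BLKS/J background, a strain that partly descends from DBA/2J. Littermate controls are not mentioned, so strain background, source of the mice and genotype cannot be told apart here. This bears on Alad in particular, a gene whose copy number differs between inbred mouse strains and whose copies were not counted in these mice. The labels also give the stromal vascular fraction as cell type, a preparation from which adipocytes have been removed, but the tissue as BAT. Across the 8 libraries the adipocyte genes Adipoq, which encodes adiponectin, and Plin1, a lipid droplet coat gene, stood at 1245 to 2112 and 387.9 to 954.3 CPM (counts scaled to a common library size), so adipocyte RNA was abundant in each of them.

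Iron travels in blood bound to transferrin, encoded by Trf, and enters cells through the transferrin receptor, encoded by Tfrc. Iron that is not used at once is stored inside ferritin, a shell of heavy (Fth1) and light (Ftl1) chains, or leaves the cell through ferroportin, encoded by Slc40a1. Mitochondria use iron for iron-sulfur clusters and for heme, the cofactor of cytochromes and haemoglobin, and brown adipocytes are packed with mitochondria. Heme is built in a chain of enzymes that starts with ALA synthase (Alas1 in most cells, Alas2 in red cell precursors), passes through ALA dehydratase (Alad) and coproporphyrinogen oxidase (Cpox), and ends with ferrochelatase (Fech), which puts iron into the ring.

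Iron controls much of this system after transcription. Iron regulatory proteins (encoded by Aco1 and Ireb2) bind a short hairpin, the iron-responsive element, when iron is scarce. In a 5′ UTR the bound hairpin blocks translation, and in the 3′ UTR of Tfrc it protects the mRNA from decay, so that RNA counts can report the second kind of control but not the first. The hairpins are shown because they divide the genes in this way. They were searched in the GENCODE M21 transcripts of build mm10 as a C, 5 bases, the loop CAGTGN (last base not G) and 5 bases that pair with the first 5, on the sense strand. Each line gives a window of 30 bases, in which capitals mark the unpaired C and the 6 bases of the loop.
Fth1, 5′ UTR, chr19:9982732-9982761, plus strand: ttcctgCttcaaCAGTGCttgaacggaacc
Ftl1, 5′ UTR, chr7:45459778-45459807, minus strand: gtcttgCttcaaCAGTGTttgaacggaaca
Slc40a1, 5′ UTR, chr1:45925464-45925493, minus strand: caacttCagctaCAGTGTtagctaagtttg
Tfrc, 3′ UTR, chr16:32631219-32631248, plus strand: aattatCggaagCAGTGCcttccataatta
Tfrc, 3′ UTR, chr16:32631598-32631627, plus strand: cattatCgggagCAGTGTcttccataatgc
Tfrc, 3′ UTR, chr16:32631663-32631692, plus strand: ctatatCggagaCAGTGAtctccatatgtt
Tfrc, 3′ UTR, chr16:32631710-32631739, plus strand: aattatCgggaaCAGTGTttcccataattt

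The motif was found in a UTR of 4 of the 9 genes. Of 9106 tested protein-coding genes with an annotated coding transcript, 16 (0.176%) held it in a 5′ UTR and 59 (0.648%) in a 3′ UTR. The ferritin chains share the 5 bases before the loop, and the 4 Tfrc hairpins differ from one another in the stem. Among the other heme genes, the red cell enzyme Alas2 held the motif in a 5′ UTR, split by an intron in the genome. The iron-sulfur gene Bola3 held it in a 3′ UTR. For the other genes of the lists, no match says only that these letters were not in their annotated UTRs.

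The libraries held 2374079 to 3240074 counts, so that 3 counts, taken as the floor of detection, stood for 0.902 to 1.33 CPM. Libraries of 1 genotype correlated across genes with r of 0.94 to 0.96, and libraries of different genotypes with r of 0.83 to 0.90. Marker RNA of several cell types differed as well. All 13 macrophage markers and all 13 skeletal muscle markers were called higher in db/db, with summed levels of 182.3 to 237.5 CPM in WT against 981.4 to 1794 CPM in db/db for macrophages, and of 448.4 to 1610 against 2411 to 12047 CPM for muscle. Of 7 brown adipocyte markers tested, 6 were lower, and the sum of the 9 listed was 8990 to 10591 CPM in WT and 3742 to 6783 CPM in db/db. All 6 fibroblast markers were higher, with sums of 599.7 to 741.0 CPM in WT and 1134 to 2478 CPM in db/db, and 3 of 5 endothelial markers lower, with sums of 238.1 to 300.3 and 165.8 to 198.5 CPM. Haemoglobin transcripts (4 genes) overlapped, at 3087 to 8669 CPM in WT and 6435 to 16921 CPM in db/db, and 1 of the 5 erythroid markers tested, Hbb-bt, was called higher (adjusted p 0.0433). Of the 6 adipocyte markers, Plin1 and Fabp4 were called higher and 0 lower. In bulk tissue, fewer cells of a type and less RNA per cell cannot be told apart.

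**Figure D1:**
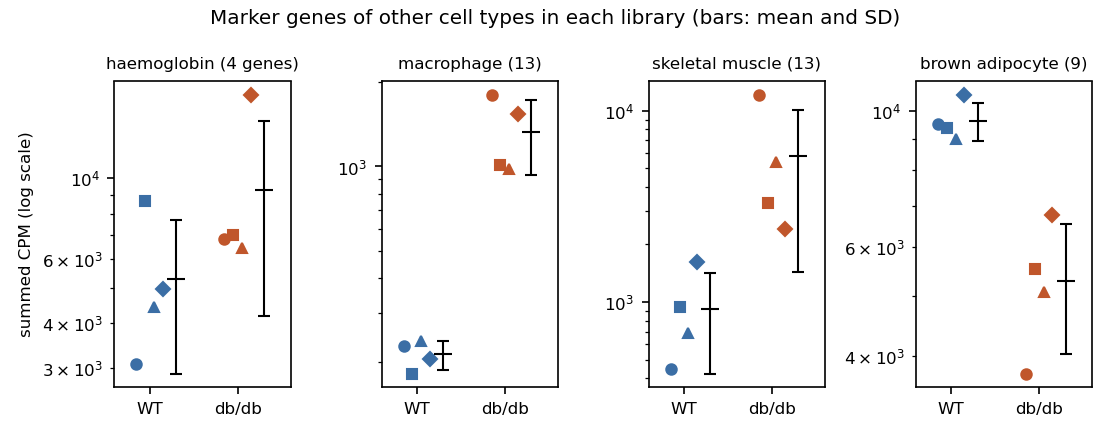
Summed CPM (log scale) of marker genes of red cells (haemoglobin), macrophages, skeletal muscle and brown adipocytes in the 4 WT (blue) and 4 db/db (orange) libraries, with circle, square, triangle and diamond for replicates 1 to 4 and the mean with SD beside them. Macrophage, muscle and brown adipocyte sums do not overlap between genotypes, haemoglobin sums do, and db/db replicate 4 stands apart at 16921 CPM.

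Ferritin heavy and light chain transcripts rose in db/db BAT, and Alad and Trf fell, though the Trf call was lost in 10 of 18 alternatives. The other 5 genes did not pass the test. Thus 4 of the 9 genes (2 higher, 2 lower) passed an adjusted p of 0.05 in edgeR, against 27.7% of all genes tested (15.8% higher, 11.9% lower). Libraries of the genotypes did not overlap for 2 of the 9, Fth1 (higher) and Alad (lower), against 28.1% of all genes. The median log2 fold change of the 9 genes was 0.16, and that of all genes 0.01. With 9 genes, these counts say nothing particular about iron genes as a group. The count rests in part on WT replicate 1, without which Alad alone was called. Adjusting for a skeletal muscle score (the mean z-score of the 13 markers) left 0 of the 9 genes called, and 577 genes in all. That score did not overlap between genotypes, so it competes with genotype, and calls lost with it decide nothing about muscle content.

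**Figure D2:**
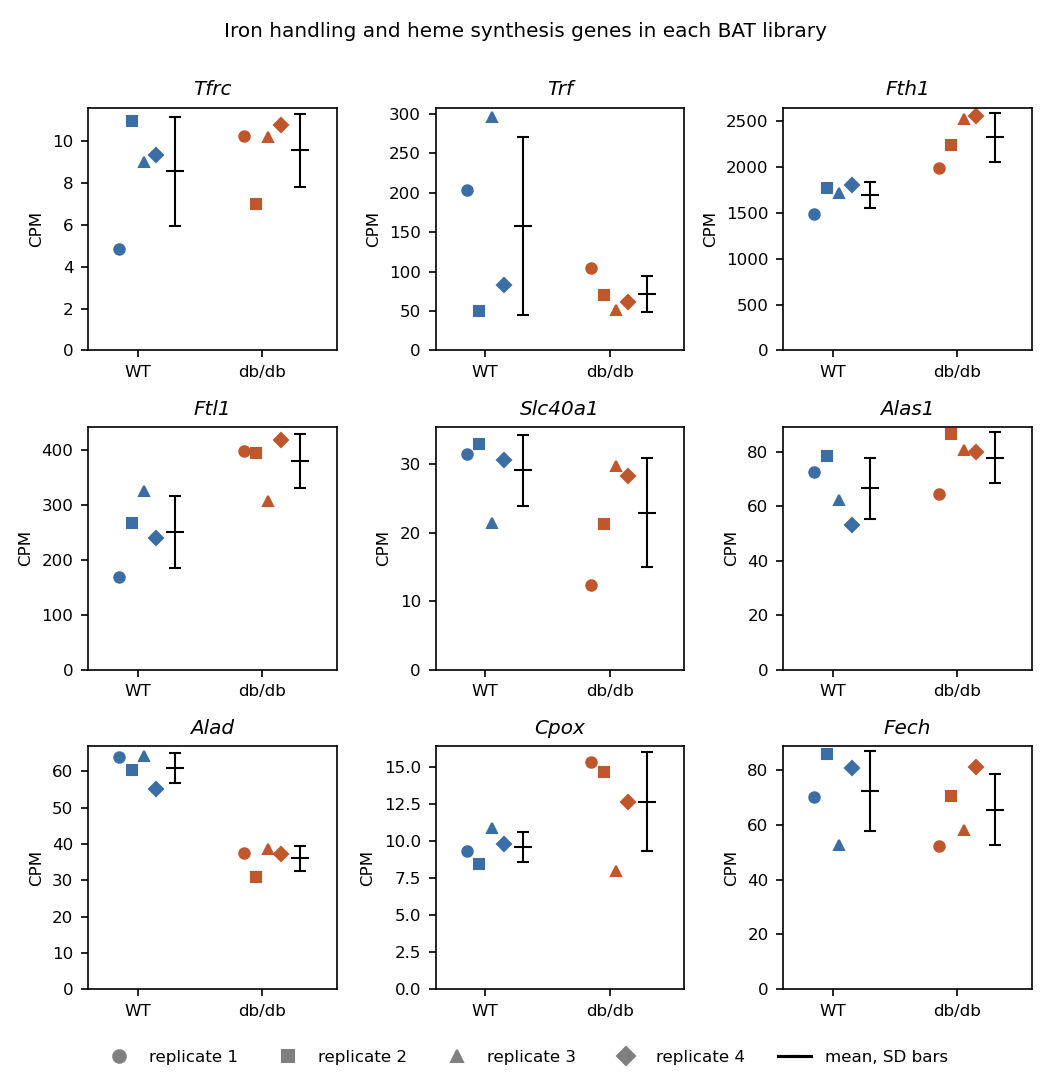
Level in CPM of each of the 9 genes in the 4 WT (blue) and 4 db/db (orange) libraries, with a symbol per replicate and the mean with SD beside them. For Fth1 the db/db libraries all lie above, and for Alad all below, the WT libraries, while the other 7 genes overlap.

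Transferrin receptor transcripts gave no detectable difference. Tfrc (ENSMUSG00000022797, chromosome 16, 32608920 to 32632794, mm10) was measured at 4.86, 10.97, 9.02 and 9.34 CPM in WT replicates 1 to 4. In db/db replicates 1 to 4 it was at 10.2, 6.999, 10.2 and 10.8 CPM. The ranges overlapped, and WT replicate 1 was the lowest library. The log2 fold change was 0.16 (adjusted p 0.751 in edgeR, SE 0.31), with a 95% interval of −0.49 to 0.80, and it turned to −0.06 without WT replicate 1. Only 12 to 34 reads per library lay behind these levels, so differences within that interval could not be detected at this depth. Of the 9 genes, Tfrc is the one whose mRNA level the iron regulatory proteins are known to set.

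Transferrin, the iron carrier of plasma, varied more relative to its mean than any other of the 9 genes among WT mice. Trf (ENSMUSG00000032554, chromosome 9, 103204001 to 103230444) stood at 203.6, 49.8, 295.7 and 83.6 CPM in WT replicates 1 to 4 and at 104.4, 70.0, 51.0 and 61.4 CPM in db/db replicates 1 to 4. Thus WT replicates 1 and 3 were high, while WT replicate 4 lay within the db/db range and WT replicate 2 just below it. WT averaged 158.2 ± 113 CPM against 71.7 ± 23.2 CPM in db/db (SD, n = 4 per genotype). Trf fell by 1.14 on the log2 scale (adjusted p 0.0328 in edgeR, SE 0.38). The call was lost in 10 of 18 alternatives, 5 of the 8 with 1 library left out among them. It was lost in DESeq2 (adjusted p 0.146) and in limma-voom (adjusted p 0.127), and the value was −0.66 without WT replicate 3 (edgeR adjusted p 0.173). The liver makes most plasma transferrin. The 7 hepatocyte markers summed to at most 3.91 CPM in any library, and 3 of them were at 0 in all. A part of liver RNA in the Trf values was not tested. Among WT libraries, replicates 1 and 3 also held the least haemoglobin RNA (3087 and 4441 CPM) and muscle marker RNA (448.4 and 691.4 CPM) and the most macrophage (229.5 and 237.5 CPM) and fibroblast marker RNA (666.1 and 741.0 CPM). In db/db, the library with the least Trf, replicate 3, was also that with the least haemoglobin RNA. The value was −0.31 with the erythroid score as a covariate (adjusted p 0.678) and −0.81 with the muscle score (adjusted p 0.591). Trf shares exons with Gm20425 on the same strand, so its count is uncertain.

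Both chains of ferritin, the iron store, rose in db/db BAT. Fth1 (ENSMUSG00000024661, chromosome 19, 9980598 to 9985098) encodes the heavy chain, which oxidises iron as it enters the shell. It was at 1493, 1778, 1719 and 1800 CPM in WT replicates 1 to 4 and at 1989, 2241, 2528 and 2553 CPM in db/db replicates 1 to 4. Every db/db library was above every WT library. The rise was 1.37-fold (log2 fold change 0.46, adjusted p 0.0178 in edgeR, SE 0.14, 95% interval 0.17 to 0.74). It missed the threshold without WT replicate 1 (adjusted p 0.0778) and without db/db replicate 3 (adjusted p 0.0528).

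Ftl1 (ENSMUSG00000050708, chromosome 7, 45457944 to 45459884) encodes the light chain, which helps iron to mineralise inside the shell. Its levels were 168.8, 267.6, 325.4 and 240.7 CPM in WT replicates 1 to 4, and 397.4, 394.8, 308.1 and 418.9 CPM in db/db replicates 1 to 4. WT replicate 3 and db/db replicate 3 crossed, and the other libraries of the genotypes were apart. The rise was 1.52-fold (log2 fold change 0.60, adjusted p 0.0143 in edgeR, SE 0.17), and it missed the threshold without WT replicate 1 (adjusted p 0.0551). The ratio of heavy to light chain counts within a library averaged 7.06 ± 1.496 in WT against 6.25 ± 1.38 in db/db (SD, n = 4 per genotype), with overlap, so no change in chain balance was seen beyond the spread. Ftl1 has near-identical copies (at least 75 bases at 97% identity or more) in 10 other annotated genes, and the 2 of these in the table held at most 2 counts in a library. The hairpins of both chains sit in the 5′ UTR, where control acts on translation, which RNA counts do not show.

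Ferritin is made by every cell type, and marker RNA of several cell types also differed between genotypes, in both directions. The macrophage, muscle, fibroblast, endothelial and brown adipocyte sums above did not overlap between genotypes, and their part in the ferritin result was not tested by cell type. After adjustment for the muscle score the log2 fold changes were 0.51 for Fth1 (adjusted p 0.262) and 0.55 for Ftl1 (adjusted p 0.317). With the erythroid score they were 0.35 (adjusted p 0.143) and 0.44 (adjusted p 0.1504), so that neither covariate left a call. Because the muscle score separates the genotypes, the calls lost with it decide nothing about muscle content.

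Ferroportin, the only known cellular exporter of iron, gave values that overlapped. Slc40a1 (ENSMUSG00000025993, chromosome 1, 45908068 to 45926523) was at 31.6, 32.9, 21.4 and 30.6 CPM in WT replicates 1 to 4. In db/db replicates 1 to 4 it was at 12.3, 21.3, 29.7 and 28.3 CPM. The lowest library was db/db replicate 1, which also held the most muscle and macrophage marker RNA. The log2 fold change was −0.36 (adjusted p 0.303 in edgeR, SE 0.25), with a 95% interval of −0.88 to 0.16, and it was −0.15 without db/db replicate 1.

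In heme synthesis the clearest difference was at Alad, the second enzyme of the chain, which joins ALA molecules into the first pyrrole ring. Alad (ENSMUSG00000028393, chromosome 4, 62509169 to 62519918) was at 63.9, 60.4, 64.3 and 55.2 CPM in WT replicates 1 to 4. In db/db replicates 1 to 4 it was at 37.6, 30.9, 38.6 and 37.2 CPM. The genotypes were far apart next to the spread within each, with 60.9 ± 4.22 CPM in WT against 36.1 ± 3.51 CPM in db/db (SD, n = 4 per genotype). Alad thus stood 1.69-fold lower in db/db (log2 fold change −0.76, adjusted p 9.12e-04 in edgeR, SE 0.15, 95% interval −1.07 to −0.44). The call held in DESeq2 (adjusted p 5.89e-05), in limma-voom (adjusted p 0.00102), with each library left out in turn (edgeR adjusted p at most 0.00421) and with the erythroid score as a covariate (adjusted p 0.00934). After adjustment for the muscle score, which competes with genotype, it missed the threshold, at −0.73 (adjusted p 0.153).

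Genes beside Alad were read because a change in the number of gene copies can extend past 1 gene. On one side lies Pole3, a DNA polymerase subunit gene whose nearest end is 2730 bases away, with a log2 fold change of 0.04 (adjusted p 0.919 in edgeR, SE 0.20). Its levels were 34.8 to 59.9 CPM in WT and 40.1 to 62.9 CPM in db/db. On the other side, 5701 bases away, Hdhd3 held 0 to 10 counts per library, too few to be tested. No annotated gene overlaps Alad, and no other gene held a near-identical copy of it in the reference, which is that of C57BL/6J. The number of Alad copies in these mice was not measured, and its part in the result was not tested.

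Alas1, the enzyme that limits heme synthesis in most cells, did not pass the test. Alas1 (ENSMUSG00000032786, chromosome 9, 106233455 to 106248654) was at 72.4, 78.5, 62.4 and 53.1 CPM in WT replicates 1 to 4 and at 64.4, 86.5, 80.7 and 80.0 CPM in db/db replicates 1 to 4. These ranges overlapped, with a log2 fold change of 0.22 (adjusted p 0.305 in edgeR, SE 0.15, 95% interval −0.10 to 0.55). It was 0.12 without WT replicate 4, and 0.58 after adjustment for the muscle score (adjusted p 0.236). Within a library, the ratio of Alas1 to Alad counts, the first enzyme over the second, was 0.96 to 1.30 in WT and 1.71 to 2.80 in db/db, without overlap. This ratio rests on the same Alad counts as the test above and is given as a description. Alas1 shares exon sequence with 4930500F10Rik on the other strand, which held at most 2 counts in a library.

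Cpox and Fech, which act late in the chain inside mitochondria, overlapped between genotypes. Cpox (ENSMUSG00000022742, chromosome 16, 58670292 to 58717636) was at 9.31, 8.44, 10.9 and 9.76 CPM in WT replicates 1 to 4 and at 15.3, 14.6, 7.98 and 12.6 CPM in db/db replicates 1 to 4. In db/db, 3 of 4 libraries were above all of WT and replicate 3 below all of it, on 18 to 51 reads a library. The log2 fold change was 0.41 (adjusted p 0.279 in edgeR, SE 0.27, 95% interval −0.15 to 0.97). Cpox overlaps Gpr15 and shares stretches of near-identical sequence with 11 genes in all, of which the 9 in the table held 220 to 692 counts a library, so its count is uncertain.

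Fech (ENSMUSG00000024588, chromosome 18, 64452914 to 64490251) was at 70.0, 85.7, 52.6 and 80.6 CPM in WT replicates 1 to 4. In db/db replicates 1 to 4 it was at 52.3, 70.6, 58.1 and 81.1 CPM. High and low libraries were found in both genotypes, and the log2 fold change was −0.14 (adjusted p 0.606 in edgeR, SE 0.18, 95% interval −0.51 to 0.23). Leaving out each library moved this value between −0.29 (without WT replicate 3) and −0.05 (without db/db replicate 1). Fech shares a near-identical stretch with Tmem45b, which held 110 to 830 counts a library, so its count is uncertain.

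The rest of the heme pathway was read from a list of 13 other genes, of which 12 could be tested. On this list 0 were called higher (against 15.8% of all genes) and 3 lower (25.0% of those tested, against 11.9% of all genes), with a median log2 fold change of −0.19. The genes called were mitochondrial membrane proteins and not enzymes of the chain. Fam210b, which assists iron import for heme in red cell precursors, fell by 0.98 on the log2 scale (edgeR adjusted p 0.00245), with 23.8 to 37.6 CPM in WT and 12.3 to 16.8 CPM in db/db. Tmem14c, which moves a porphyrin precursor across the inner membrane, fell by 0.59 (adjusted p 0.0033), and Slc25a39, a glutathione carrier, fell by 0.44 (adjusted p 0.04). The call of Slc25a39 was lost in 9 of 18 alternatives, among them 6 of the 8 in which 1 library was left out. In alternatives other than leaving out a library, the smallest changes were −0.74 for Fam210b, −0.34 for Tmem14c and −0.13 for Slc25a39. With the muscle score as covariate none of these genes was called. Brown adipocyte marker sums were lower in the same libraries, and their part in these values was not tested. Of the enzymes between Alad and Fech, Urod gave a log2 fold change of −0.12 (adjusted p 0.593) and Ppox one of −0.16 (adjusted p 0.797), both named after their values were seen, and Uros was too low to be tested. Leaving out 1 library moved Urod between −0.25 (without WT replicate 3) and −0.05 (without WT replicate 1), and Ppox between −0.31 (without WT replicate 4) and 0.27 (without WT replicate 3).

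Alas2, the form of ALA synthase made by red cell precursors, stood beside haemoglobin. It was at 19.0, 46.4, 17.7 and 22.9 CPM in WT replicates 1 to 4 and at 31.6, 37.9, 37.2 and 87.4 CPM in db/db replicates 1 to 4. The highest library of each genotype, WT replicate 2 and db/db replicate 4, was also the one with the most haemoglobin RNA. Its log2 fold change was 0.87 (adjusted p 0.055 in edgeR, SE 0.33) and passed in 5 of 18 alternatives, such as without WT replicate 2 (adjusted p 0.00729), but was 0.42 without db/db replicate 4 (adjusted p 0.289), and the ratio of Alas2 to Hbb-bs counts was 0.00773 to 0.013 over all 8 libraries. With the erythroid score, of which Alas2 is itself a part, as a covariate its value was 0.05.

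Several other genes of iron uptake and transport were higher in db/db BAT. Of 16 such genes 9 could be tested, and 6 were called higher and 0 lower, against 15.8% and 11.9% of all genes, with a median log2 fold change of 0.92. Among the 7 genes too low to be tested, Slc39a8, a metal importer, held 12, 3, 5 and 3 counts in WT replicates 1 to 4 and 3, 2, 0 and 0 in db/db replicates 1 to 4. Tfr2, the other transferrin receptor, held 0 counts in each WT library and 22, 8, 0 and 4 in db/db. The largest log2 fold change among the 9 tested was that of Slc48a1, which carries heme out of lysosomes. It went from 118.2 ± 9.42 CPM in WT to 369.0 ± 54.0 CPM in db/db (SD, n = 4 per genotype; log2 fold change 1.64, adjusted p 1.92e-07 in edgeR, SE 0.14). Hfe, the protein that binds the transferrin receptor and is mutated in haemochromatosis, rose by 1.56 on the log2 scale, with 6.37 to 10.1 CPM in WT and 16.4 to 34.9 CPM in db/db (adjusted p 2.03e-04). Steap4 and Steap3, reductases that turn ferric into ferrous iron, rose by 1.53 and 1.28 on the log2 scale (adjusted p 0.00428 and 0.0108). After adjustment for the muscle score the value of Steap3 was 0.72 (adjusted p 0.579). The macrophage, muscle and fibroblast marker sums were higher in the same libraries, and their part in the values of this group was not tested. The genes called also included Scara5, a receptor for ferritin, and Slc25a37, the mitochondrial iron importer mitoferrin of red cells. Slc11a2, the ferrous iron transporter of endosomes, gave −0.42 (adjusted p 0.211). Slc48a1 shares exon sequence with Hdac7 on the other strand, so its count is uncertain.

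Among 17 genes of iron storage, export and control, 12 could be tested, with 3 higher (25.0%, against 15.8% of all genes), 1 lower (8.3%, against 11.9%) and a median log2 fold change of −0.13. Hfe2, which encodes hemojuvelin, a co-receptor for bone morphogenetic proteins known from liver and skeletal muscle, rose by 2.22 on the log2 scale (adjusted p 0.00298 in edgeR, SE 0.50). It was at 23.2, 10.2, 11.97 and 4.09 CPM in db/db replicates 1 to 4, an order that was also that of their muscle marker sums (12047, 3315, 5401 and 2411 CPM), and its WT range of 0.809 to 4.24 CPM overlapped. After adjustment for the muscle score its value was 0.12 (adjusted p 0.948). Heph, an oxidase that works with ferroportin, rose by 1.205 (adjusted p 0.0229), and Fbxl5, which marks an iron regulatory protein for destruction when iron is plentiful, rose by 0.61 (adjusted p 0.0414). Flvcr1, described as a heme exporter and a choline transporter, fell by 0.91 (adjusted p 0.0174). The Fbxl5 call was lost in 12 of 18 alternatives, DESeq2 and 6 of the 8 with 1 library left out among them. Heph lost its call without WT replicate 2 (adjusted p 0.0747), WT replicate 4 (0.0732) or db/db replicate 3 (0.0628), and Flvcr1 without WT replicate 2 (adjusted p 0.0656). The iron regulatory proteins themselves did not pass, with −0.45 for Aco1 (adjusted p 0.0634) and −0.19 for Ireb2 (adjusted p 0.597), although Aco1 passed in 6 of 18 alternatives, such as limma-voom (adjusted p 0.0462) and without db/db replicate 3 (adjusted p 0.0172). Ncoa4, which delivers ferritin for breakdown, gave −0.73 on 4 to 15 reads a library (adjusted p 0.24). Leaving out 1 library moved Ncoa4 between −1.03 (without db/db replicate 4) and −0.46 (replicate 2 left out in db/db), and Ireb2 between −0.38 (without db/db replicate 2) and −0.10 (replicate 1 left out in db/db). Hamp, the gene of the liver hormone hepcidin that closes ferroportin, had 0 counts in every library. Heph, Fbxl5 and Flvcr1 share exon sequence with a gene on the other strand, so their counts are uncertain.

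Genes that scavenge and degrade heme were higher where they were called. Of 8 genes 7 were tested, with 4 higher (57.1%, against 15.8% of all genes), 0 lower (against 11.9%) and a median log2 fold change of 0.49. Hp, haptoglobin, which binds free haemoglobin and is also made by adipocytes, rose by 2.42 on the log2 scale, with 212.2 to 327.1 CPM in WT libraries and 1341 to 1726 CPM in those of db/db (adjusted p 1.13e-08 in edgeR, SE 0.16). Cd163, the macrophage receptor for the haptoglobin-haemoglobin complex, rose by 1.56 (adjusted p 3.46e-04). Cd163 is also one of the 13 macrophage markers, and its db/db libraries stood in the order of the macrophage sum, whose part in the value was not tested. Blvra, which makes bilirubin, and Lrp1, a receptor for heme bound to hemopexin among other cargo, rose by 0.79 and 0.49 (adjusted p 9.29e-04 and 0.0368). The Lrp1 call was lost in 9 of 18 alternatives, DESeq2 (adjusted p 0.0585) and 6 of the 8 with 1 library left out among them. The heme oxygenases, which open the heme ring, were not called, with −0.25 for Hmox1 (adjusted p 0.69) and −0.32 for Hmox2 (adjusted p 0.116). Leaving out 1 library moved Hmox1 between −0.62 (without db/db replicate 4) and −0.04 (without WT replicate 3).

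**Figure D3:**
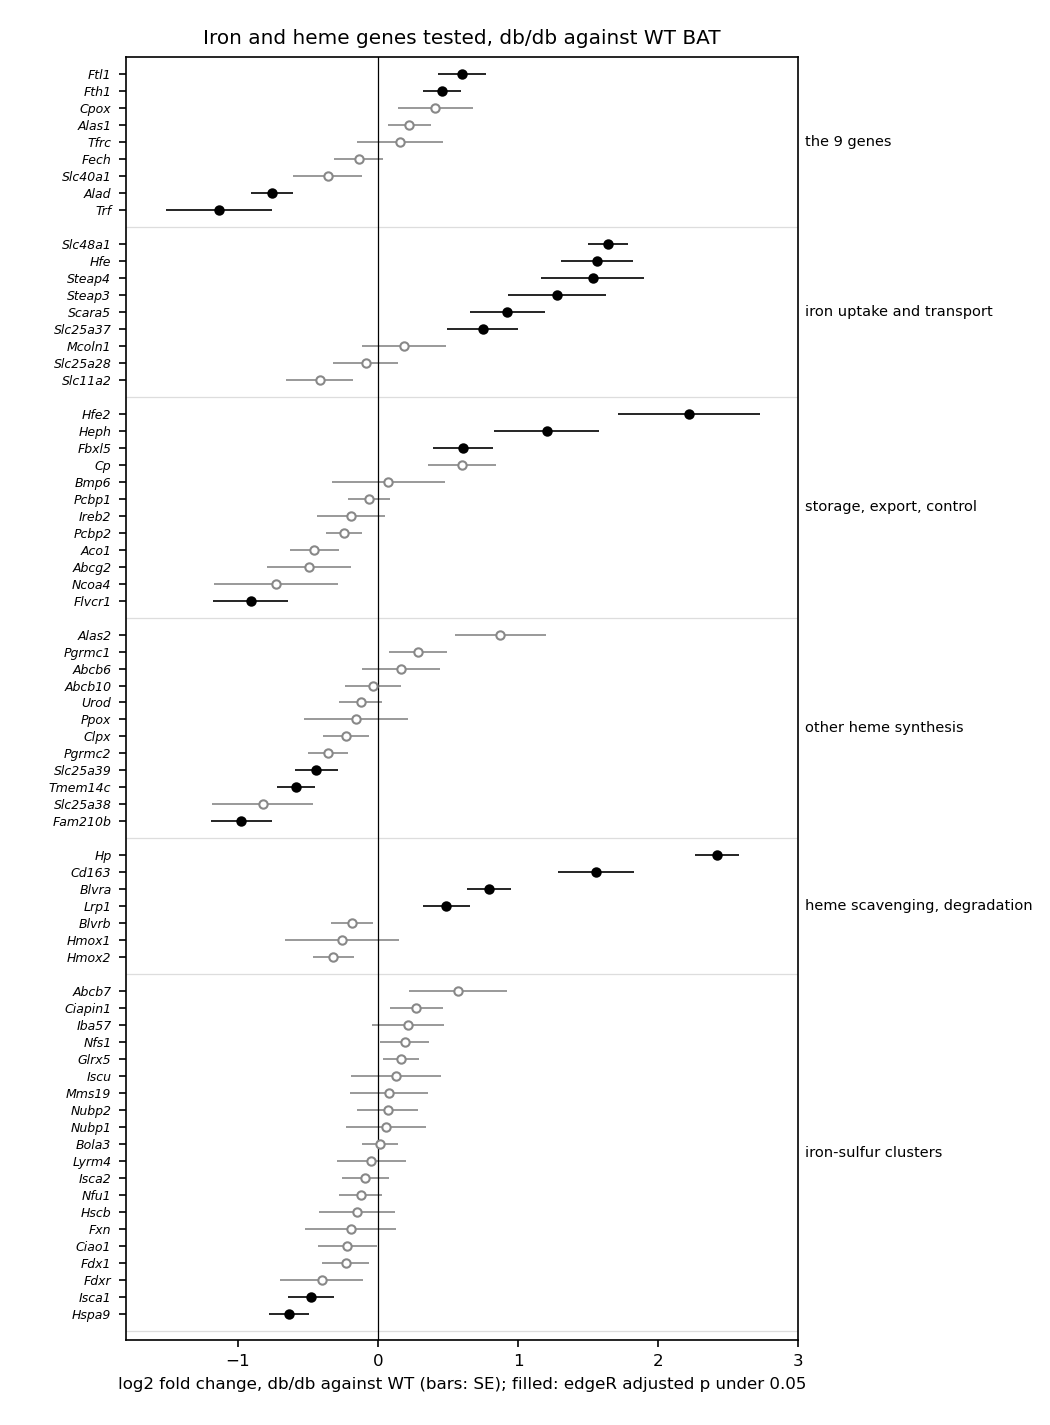
Log2 fold change, db/db against WT, with its SE (bars) for the 9 genes and the other iron and heme genes that could be tested, grouped by role (filled, edgeR adjusted p under 0.05). Calls in uptake and transport and in heme scavenging lie to the right of 0 (6 and 4 genes), and those of heme synthesis beyond the 9 genes to the left (3 genes).

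Over these lists and that of iron-sulfur clusters, 60 of 76 genes could be tested, and 13 were higher (21.7%, against 15.8% of all genes) and 6 lower (10%, against 11.9%). Their median log2 fold change was −0.04, and 14 of them (23.3%, against 28.1%) did not overlap between genotypes. Adjustment for the muscle score left 5 higher, namely Slc48a1, Hfe, Steap4, Hp and Blvra, and 0 lower.

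The 9 genes did not move as a block within genotypes. Over their 36 pairs, the correlation of deviations from the genotype means across the 8 libraries ran from −0.75 to 0.68, with a median of −0.07, as a description over libraries that share depth and cell content. The gene whose log2 CPM was most like that of Alad over the 8 libraries was Ubac1 (Pearson r 0.98), followed by Pgm1 (r 0.98). For Fth1 these were Psmd8 (r 0.98) and Mtmr14 (r 0.97), and for Ftl1 Ogfrl1 (r 0.98) and Cmip (r 0.97). For Trf, which separated the WT libraries, they were Clmn (r 0.95) and Slc9a3r2 (r 0.94). Among genes that were not called, the nearest was Gtf2h5 for Tfrc (r 0.94), Clpb for Slc40a1 (r 0.96), Pfas for Alas1 (r 0.95), Ednrb for Cpox (r 0.94) and Mpp2 for Fech (r 0.96). These are the highest or second highest of 9264 values over 8 libraries, and part of it is the difference between genotypes where the gene was called.

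**Figure D4:**
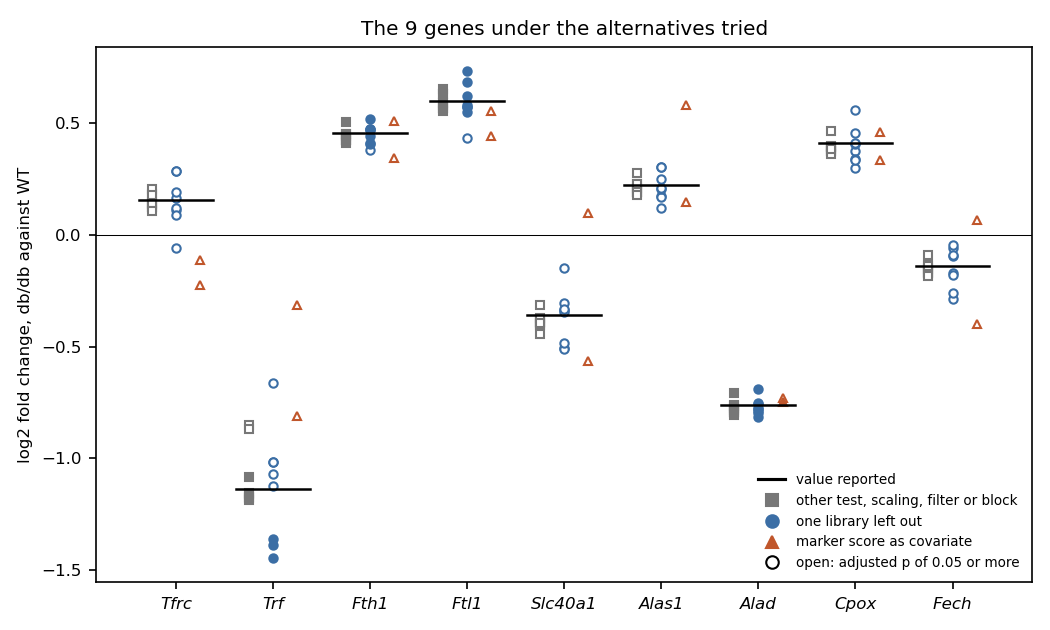
Log2 fold change, db/db against WT, of each of the 9 genes as reported (black line) and under other tests, scalings, filters and the replicate block (squares), with one library left out (circles) and with a marker score as covariate (triangles), where open symbols have an adjusted p of 0.05 or more. Alad stays between −0.81 and −0.69, while Trf ranges from −1.45 to −0.31, and Tfrc, Slc40a1 and Fech cross 0.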

How the data were processed

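Libraries were prepared from total RNA of BAT by a commercial mRNA-seq service and sequenced single-end. The authors state trimming with bbduk, alignment to mm10 with STAR and counting with HTSeq-count, whereas the submitters' processing notes name Trimmomatic, HISAT2 and DESeq2. The deposited values used here are raw counts per Ensembl gene. Strand setting and use of molecular identifiers are not given in the sources used here, so counts may include PCR copies, and genes overlapping another gene are uncertain. Besides those marked in the text, Alas2, Ppox, Hmox2, Slc11a2, Slc25a37 and Cp share exon sequence with a gene on the other strand. A second deposited table of normalized values and a sample sheet were not used.

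Of 31053 genes, 31011 were matched to GENCODE M21. Genes were filtered by filterByExpr (minimum count 10, minimum total 15) and scaled by TMM, and genotype was tested in edgeR 4.0.16 (R 4.3.3) by quasi-likelihood, with Benjamini-Hochberg adjustment over 9264 genes at 0.05. CPM are scaled by the counts in tested genes and the TMM factor. SEs were derived from the F statistic and 95% intervals from its degrees of freedom. DESeq2 1.42.0 and limma-voom (limma 3.58.1) were alternatives, with other scalings and filters, a replicate block, marker scores as covariates and each library left out. The scripts were tested on simulated data. Intervals and floors cover counting error and spread between these samples only. Replicate pairs of 1 genotype differed by more than counting error (chi-square per degree of freedom at least 3.99).

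The 9 genes and the gene lists were chosen with earlier results of these data known. Beyond the 9 genes, each list is represented by genes with an adjusted p under 0.05, up to 4 higher and 4 lower by size, and genes named outside this rule (Alas2, Urod, Ppox, Uros, Aco1, Ireb2, Ncoa4, Hamp, Slc11a2, Slc39a8, Tfr2, Bola3, Hmox1, Hmox2, Cp, Scara5 and Slc25a37) were chosen after their values were seen. One item is not reported here.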

Additional observations from a re-analysis of the deposited data

Results flagged for a closer look

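In groups of 4 libraries, the highest or lowest library was set against the gap to its nearest neighbour (Dixon's test at 95%). Of 88 groups examined 8 were past it, where chance gives about 1 in 20, or 4.4. Among the 9 genes this was the case for Tfrc, where db/db replicate 2 was at 6.999 CPM and the others of its genotype at 10.2 to 10.8 CPM. In db/db replicate 4 Alas2 stood at 87.4 CPM while the others were at 31.6 to 37.9 CPM, and the erythroid marker sum of the same library was 17015 CPM against 6473 to 7026 CPM. Ppox was at 12.4 CPM in WT replicate 3 against 4.67 to 5.67 CPM, and Slc11a2 at 11.8 CPM in WT replicate 2 against 19.1 to 19.4 CPM. Hfe was at 6.37 CPM in WT replicate 4 against 9.71 to 10.1 CPM. Lrp1 was at 117.6 CPM in WT replicate 3 against 74.3 to 80.2 CPM, and among db/db libraries replicate 4 was at 94.1 CPM and the others at 131.2 to 134.8 CPM.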

How the results depend on the processing

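Among the 9 genes, 69 of 72 comparisons with another test, scaling, filter or block kept direction and side of the threshold, and the 3 others were those of Trf, lost with DESeq2 at −1.18, limma-voom at −0.85 and the replicate block at −0.87 (adjusted p 0.0676), so that 1 of the 9 genes was lower in each. Without a filter, edgeR used infinite prior degrees of freedom and ignored the spread of single genes, so its call of Trf there says nothing about stability. Replicate numbers mark different animals and their deviations did not go together (correlations −0.078 to 0.049). The block changed no other call among the 9 genes.

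The muscle score did not overlap between genotypes (−1.38 to −0.11 in WT, 0.04 to 1.67 in db/db), so it competes with genotype. With it as covariate 577 genes were called (424 higher, 153 lower), 0 of the 9 genes (0 higher, 0 lower) and 5 other iron and heme genes (5 higher, 0 lower). Values were then −0.22 for Tfrc, −0.81 for Trf, 0.51 for Fth1, 0.55 for Ftl1, 0.10 for Slc40a1, 0.58 for Alas1, −0.73 for Alad and 0.0674 for Fech. Of these, Tfrc, Slc40a1 and Fech changed sign, as did Urod (0.16), Ppox (0.36) and Hmox1 (0.068). With the erythroid score 1 of the 9 genes was called (0 higher, 1 lower), with −0.11 for Tfrc, −0.31 for Trf, 0.35 for Fth1, 0.44 for Ftl1, −0.57 for Slc40a1, 0.15 for Alas1 and −0.40 for Fech.

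Leaving out each library gave 2236 to 2483 genes (1281 to 1435 higher, 889 to 1056 lower), 1 to 4 of the 9 genes (0 to 2 higher, 1 to 2 lower) and 13 to 19 others (9 to 12 higher, 3 to 7 lower, with 3 without WT replicate 2). Trf ran from −1.45 to −0.66 and lost its call without WT replicates 1 or 3 or db/db replicates 2, 3 or 4, Fth1 ran from 0.38 to 0.52, Ftl1 from 0.43 to 0.73, Tfrc from −0.0576 to 0.29, Slc40a1 from −0.51 to −0.15, Alas1 from 0.12 to 0.30, Cpox from 0.30 to 0.56, Fech from −0.29 to −0.05 and Alad from −0.81 to −0.69. Without db/db replicate 3, 2 of the 9 genes were called. Ppox (0.27) changed sign without WT replicate 3. The cause of these changes was not tested. Counts were low for Tfrc, Cpox, Steap3, Heph, Flvcr1, Ppox, Slc11a2, Hmox1 and Ncoa4, with under 60 reads in every library.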

Other observations

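Iron-sulfur clusters, the other use of iron in mitochondria, were read from a list of 22 assembly genes, of which 20 could be tested. On it 0 genes were higher (against 15.8% of all genes tested) and 2 lower in db/db BAT (10%, against 11.9%), with a median log2 fold change of −0.02. Hspa9, the chaperone that helps to hand over new clusters, fell by 0.63 on the log2 scale (adjusted p 0.00295 in edgeR, SE 0.14), with 515.6 to 671.9 CPM in WT and 310.8 to 457.8 CPM in db/db, without overlap. Isca1, which takes part in making the larger kind of cluster, fell by 0.48 (adjusted p 0.0371 in edgeR, SE 0.16), with overlap. The Isca1 call was lost in 8 of 18 alternatives, 6 of the 8 with 1 library left out among them. Isca1 shares exon sequence with Gm49354 on the same strand, so its count is uncertain. Brown adipocyte marker sums were lower in the same libraries, and their part in these values was not tested. Cp, ceruloplasmin, the copper oxidase that works with ferroportin, gave 0.60 (adjusted p 0.072 in edgeR, SE 0.24) and passed in 4 of 18 alternatives, such as without db/db replicate 3 (adjusted p 0.0101), and db/db replicate 3 at 32.8 CPM lay within the WT range of 30.1 to 57.5 CPM.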
